A study of Arabidopsis thaliana with 4 samples.

Results

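The type-A response regulators of Arabidopsis thaliana were examined by RNA sequencing in dark-grown seedlings given ethylene or kept in air. The family was taken as 10 loci of 33414 loci named in the deposited gene table. They are ARR3 (AT1G59940), ARR4 (AT1G10470), ARR5 (AT3G48100), ARR6 (AT5G62920), ARR7 (AT1G19050), ARR8 (AT2G41310), ARR9 (AT3G57040), ARR15 (AT1G74890), ARR16 (AT2G40670) and ARR17 (AT3G56380). Where a locus had more than 1 entry, those naming no other locus came first, and among these the one with the higher mean level was taken. The RefSeq annotation pairs all 10 loci with these names, 6 as the first symbol and 4 as synonyms (ARR8, for instance, is filed under RR3).

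Per the labels, all seedlings carried mutations of both SRT1 and SRT2, sirtuin-type histone deacetylases, in the Col background. The deposited workbook is named for both genes but its sheet for srt1 alone, and the values do not settle which genotype is meant, so the genotype given here is that of the labels. No libraries of another genotype were analysed here. They were 3-day etiolated seedlings grown at 24 °C. The air group (2 libraries) was held for 4 hours in hydrocarbon-free air, and the ethylene group (2 libraries) for 4 hours in such air with 10 ppm ethylene. The authors merged the libraries of a group into 1 FPKM value per gene (fragments per kilobase of transcript, scaled by mapped fragments), so neither a spread between libraries nor the depth of a library is known. The labels name no separate plantings for the libraries of a group, and the spread behind the authors' test may be technical.

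Cytokinin is perceived by histidine kinase receptors, which pass phosphate through histidine phosphotransfer proteins to the type-B response regulators, DNA-binding activators in the nucleus. Type-A response regulator genes are among the direct targets of the type-B factors and rise soon after cytokinin is given. Their proteins consist of little more than a receiver domain with a phosphate-accepting aspartate, lack a DNA-binding domain and dampen cytokinin signalling. In Arabidopsis, EIN3, the main transcription factor of the ethylene pathway, has been described as a repressor of ARR5, ARR7 and ARR15 in work on cold tolerance.

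The family falls into 5 pairs of close relatives, and the stretch around the aspartate codon shows this. The lines below give 48 coding bases per gene, read from the RefSeq genome (TAIR10.1) on the coding strand, with the codon of the phosphate-accepting aspartate in capitals.
ARR3: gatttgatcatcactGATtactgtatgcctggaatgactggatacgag
ARR4: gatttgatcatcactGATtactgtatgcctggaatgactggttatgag
ARR5: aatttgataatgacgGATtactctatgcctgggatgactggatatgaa
ARR6: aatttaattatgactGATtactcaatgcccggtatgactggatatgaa
ARR7: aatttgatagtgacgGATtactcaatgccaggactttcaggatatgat
ARR15: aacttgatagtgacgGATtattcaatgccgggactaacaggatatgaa
ARR8: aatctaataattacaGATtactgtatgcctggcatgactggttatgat
ARR9: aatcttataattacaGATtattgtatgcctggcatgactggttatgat
ARR16: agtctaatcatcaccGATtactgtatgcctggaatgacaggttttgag
ARR17: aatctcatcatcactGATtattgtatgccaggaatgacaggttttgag
The codon is GAT in all 10 genes, and 26 of the 48 bases are the same in every member. ARR3 and ARR4 differ at 2 of these bases, as do ARR8 and ARR9, whereas ARR15 and ARR16 differ at 17. Over whole coding sequences each gene's closest relative in the family was its partner. Identity was 80.7% for ARR3 and ARR4, 80.1% for ARR5 and ARR6, 75.3% for ARR7 and ARR15, 80.1% for ARR8 and ARR9, and 82.7% for ARR16 and ARR17. The longest run of identical bases shared by any 2 of the 10 transcripts was 41. Fragments lying in such a run can be assigned to either gene, and how the authors' counting treated them is not given in the sources used here.

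**Figure D1:**
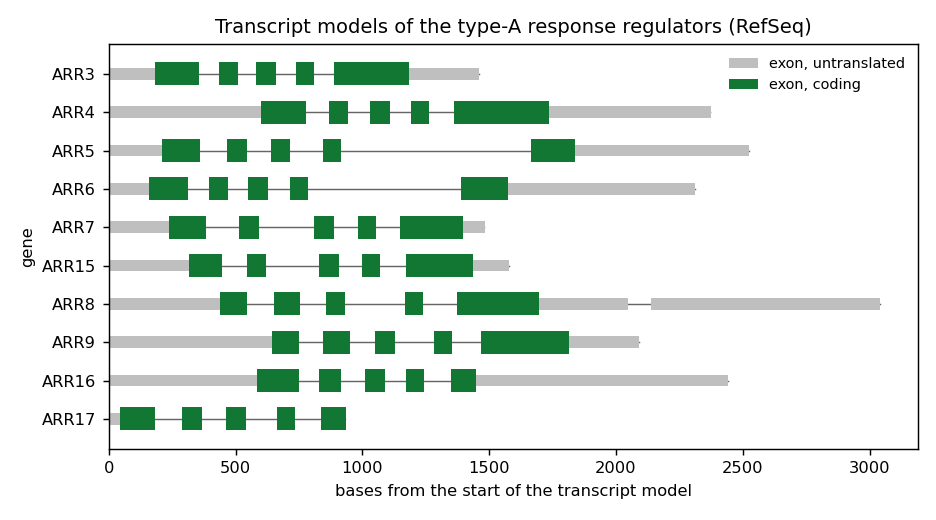
Transcript models of the 10 genes, drawn in bases from the start of the transcript on the x axis and with 1 gene per row, partners adjacent. Green boxes are coding exon parts, grey boxes untranslated parts and lines introns; every gene has 5 coding exons, and ARR8 has a further exon after the stop codon.

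The gene models shared a common plan that played no part in choosing the genes. All 10 have 5 coding exons, and their coding length runs from 462 bases in ARR17 to 780 in ARR4. ARR3 (chromosome 1, 22065617 to 22067233), ARR4 (chromosome 1, 3441988 to 3444360), ARR7 (chromosome 1, 6577833 to 6579314) and ARR15 (chromosome 1, 28131447 to 28133025) lie on chromosome 1. ARR8 (17221840 to 17224880) and ARR16 (16969673 to 16972113) lie on chromosome 2. On chromosome 3 are ARR5 (17758427 to 17760950), ARR9 (21109059 to 21111567) and ARR17 (20905264 to 20906397), and on chromosome 5 is ARR6 (25252007 to 25254318). These spans are those of TAIR10.1. ARR8, ARR9, ARR16 and ARR17 are on the plus strand and the others on the minus strand.

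The libraries carried a clear ethylene response in 8 genes listed as a check of the treatment. That list was chosen with earlier results of these data known, so it is not an independent check. Against 4.79% of all tested entries that name a gene, 7 of these 8 genes were called higher in the authors' deposited table. They were the transcription factor gene ERF1, listed at 0 in air and with 9.07 FPKM in ethylene, and EBF2, ETR2, ERS2, CTR1, RTE1 and HLS1, which rose between 2.19-fold (EBF2) and 5.78-fold (ETR2). A gene is called here at a deposited q of 0.05 or less, from Cuffdiff with Benjamini-Hochberg adjustment over all tested entries. The check gene that was not called was EBF1, with 85.8 FPKM in air, 101 FPKM in ethylene and a q of 0.375. SRT1 had 3.88 FPKM in air and 3.23 FPKM in ethylene, and SRT2 had 1.92 and 2.09. Without other genotypes these levels cannot serve as a check of the mutations. All 3 markers of dark-grown seedlings were present in both conditions. PORA, an enzyme of chlorophyll synthesis, had 397 FPKM in air and 583 FPKM in ethylene and was called higher at a deposited Cuffdiff q of 0.000878. Read against a normal curve, which is not the authors' test, its Cuffdiff statistic gave an adjusted p of 0.101, which loses the call. PIF3, a growth regulator active in darkness, was called higher under both readings, with 51.6 and 136 FPKM. PHYA, a light receptor, had 241 and 215 FPKM and was not called.

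Of the 10 members 1 was called in the authors' deposited table, ARR3, which rose. Across all 20786 tested entries that name a gene, 11.3% were called, 4.79% higher and 6.5% lower, so 1 call among 10 members is close to the background. All 10 members were tested. In the plain values 6 were higher in ethylene and 4 lower, against 51.0% higher among all tested entries. The median change, as log2((ethylene FPKM + 1)/(air FPKM + 1)), was 0.07 in the family and 0.0078 over all tested entries. The sign of the family median is not settled: with the entries of each locus summed, a choice made after the data were seen, it was -0.019, and as a plain ratio, which leaves 8 members, it was 0.20. Summed over the family, with the entry taken for each locus, the level was 231 FPKM in air and 247 in ethylene. In whole seedlings, fewer cells of a type and less RNA per cell cannot be told apart.

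**Figure D2:**
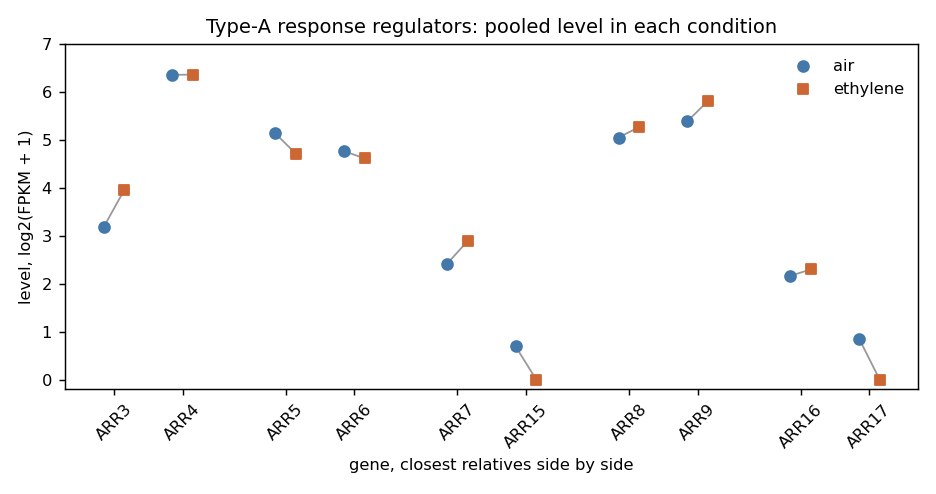
Level of each gene in air (circles) and in ethylene (squares), as log2(FPKM + 1) on the y axis, with partner genes next to each other on the x axis; each point is the authors' pooled value of 2 libraries and has no error bar. ARR4 is the highest gene in both conditions, ARR3 goes up, and ARR15 and ARR17 end at 0.

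The order of the levels was nearly the same in both conditions. In air, ARR4 led with 80.9 FPKM, followed by ARR9 with 40.9, ARR5 with 34.1, ARR8 with 32.1 and ARR6 with 26.2. Then came ARR3 with 8.03, ARR7 with 4.32, ARR16 with 3.48, ARR17 with 0.809 and ARR15 with 0.614. ARR4, ARR9, ARR5 and ARR8 together held 81.2% of the family's summed FPKM in air. In ethylene ARR5 and ARR8 traded places, at 25.2 and 37.6 FPKM, and ARR15 and ARR17 were both listed at 0. This order and the share rest on the entry taken for ARR8 and ARR16. With both of its entries summed, ARR8 had 50.2 FPKM in air, above ARR9 and ARR5. In ethylene that sum was 48.7 FPKM, above ARR5 but below ARR9. The ARR16 entries summed to 5.45 FPKM in air and 8.08 in ethylene, above ARR7 in both. Since a level has no measured spread here, which neighbours in this order differ beyond error cannot be said. FPKM is scaled by transcript length, so these levels can be set beside each other, except that those of ARR8 and ARR16 depend on the entry.

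ARR3 and ARR4 have been tied to red-light signalling and to the circadian clock as well as to cytokinin. ARR3 had 8.03 FPKM in air and 14.4 FPKM in ethylene, and the authors' deposited table gives it a Cuffdiff p of 0.00195 and a q of 0.0208. This is a 1.80-fold rise, or a log2 ratio of 0.85 with a standard error of 0.38. Standard errors given here are the log2 ratio divided by the deposited statistic, which is the wider of the possible readings, because the deposited p-values are smaller than a normal curve gives for the deposited statistic. A standard normal curve is not the authors' reference and was set against the statistic here as a stricter reading. Under it the statistic of ARR3 gives a p of 0.0257 and an adjusted p of 0.264, and ARR3 is not called. In that reading 5.84% of 20565 entries with a numeric statistic were called, 2.6% higher. At a stricter deposited q of 0.01, which 8.14% of the tested entries met, no member was called either.

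ARR4, which binds the red-light receptor phytochrome B, had 80.9 FPKM in air and 81.2 FPKM in ethylene. Both values are nearly equal. The 95% interval of its ethylene-to-air ratio ran from 0.745 to 1.35, so true ratios within these limits are not excluded. In air ARR4 was 10.1 times as high as ARR3, and in ethylene 5.63 times. The log2 ratio of ARR3 exceeded that of ARR4 by 0.84, with a 95% interval from -0.02 to 1.70 when the errors of both genes are taken as independent. That interval includes 0. With standard errors on the scale of the deposited p, tried after the data were seen, it ran from 0.21 to 1.47. Whether the rise of ARR3 is shown to differ from the response of its partner therefore turns on a scale that the table does not settle.

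ARR3 and ARR4 also differ in the bases before the gene. The 250 bases upstream of each annotated gene start are printed for this pair because only 1 of them was called, and for ARR15 because its match count for the EIN3 motif was the highest of the 10. Capitals mark AGATT, a core sequence bound by type-B regulators, and ATGTA, a core sequence bound by EIN3, each searched on both strands (AATCT and TACAT on the other). All are written 5′ to 3′ on the strand of the gene, from RefSeq TAIR10.1, and all lie on the minus strand, at chr1:22067234-22067483 for ARR3, chr1:3444361-3444610 for ARR4 and chr1:28133026-28133275 for ARR15.
ARR3: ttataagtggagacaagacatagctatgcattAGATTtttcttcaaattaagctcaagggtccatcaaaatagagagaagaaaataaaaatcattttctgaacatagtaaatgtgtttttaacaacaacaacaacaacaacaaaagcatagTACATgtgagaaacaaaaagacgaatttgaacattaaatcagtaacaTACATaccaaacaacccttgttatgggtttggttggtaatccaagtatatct
ARR4: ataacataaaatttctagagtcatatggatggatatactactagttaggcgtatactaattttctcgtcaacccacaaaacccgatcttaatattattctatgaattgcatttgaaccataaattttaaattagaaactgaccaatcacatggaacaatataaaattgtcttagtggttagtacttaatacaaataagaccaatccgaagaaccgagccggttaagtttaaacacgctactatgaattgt
ARR15: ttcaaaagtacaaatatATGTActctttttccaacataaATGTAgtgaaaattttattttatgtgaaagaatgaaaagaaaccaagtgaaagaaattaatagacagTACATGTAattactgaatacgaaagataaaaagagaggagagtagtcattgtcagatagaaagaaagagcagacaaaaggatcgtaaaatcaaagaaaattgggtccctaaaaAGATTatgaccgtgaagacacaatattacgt
The ARR3 window held 1 match to AGATT and 2 to ATGTA, the ARR4 window none of either, and the ARR15 window 1 and 4, of which 2 overlap in a run that reads as both strands. Windows of all protein-coding genes held a mean of 1.04 matches to AGATT and 0.81 to ATGTA. A link between matches and calls was not tested. In the whole family 7 of 10 windows held AGATT, beside 63.7% of 27443 windows of protein-coding genes. ATGTA stood in 3 of 10, those of ARR3, ARR8 and ARR15, beside 52.0% of all windows. Neither motif was counted outside these 250 bases, and a match is a run of letters, not a bound site. The windows were set by the RefSeq gene starts. On the minus strand the deposited entries of ARR3, ARR4 and ARR15 begin at 22066973, 3443957 and 28132710, inside the RefSeq genes. For these genes the 250 bases before the entry are other bases, and matches there were not counted. The match counts may therefore depend on the annotation.

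ARR5 and ARR6 are widely used as reporters of cytokinin response. ARR5 had 34.1 FPKM in air and 25.2 FPKM in ethylene, with a deposited Cuffdiff p of 0.0147 and a q of 0.101, and was not called. The log2 ratio of ARR5 was -0.44 (standard error 0.25). ARR6 had 26.2 FPKM in air and 23.5 FPKM in ethylene, with a q of 0.777. Both genes had their lower value in ethylene. Their log2 ratios differed by -0.28 (ARR5 minus ARR6), with a 95% interval from -1.06 to 0.49.

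ARR7 and ARR15 act in embryonic roots and in the shoot meristem, where the stem cell factor WUSCHEL is known to repress them. ARR7 had 4.32 FPKM in air and 6.40 FPKM in ethylene, with a log2 ratio of 0.57, a standard error of 0.54 and a q of 0.445. ARR15 was at 0.614 FPKM in air and was listed at 0 in ethylene. The deposited p of ARR15 was 0.00935 and its q 0.0732, so it was not called. The plain values of this pair moved in opposite directions, ARR7 upwards and ARR15 downwards. No ratio can be given for ARR15, and the difference between both responses was not tested.

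ARR8 and ARR9 also act as negative regulators of cytokinin response. ARR8 had 32.1 FPKM in air and 37.6 FPKM in ethylene, with a q of 0.525. ARR9 had 40.9 FPKM in air and 55.1 FPKM in ethylene, a log2 ratio of 0.43 with a standard error of 0.23. Neither was called; the deposited p of ARR9 was 0.0092 and its q 0.0724. Both values were higher in ethylene, but for ARR8 the direction depends on the entry. A second ARR8 entry had the lower value in ethylene, and with both entries summed the log2 change of ARR8 was -0.043. The log2 ratio of ARR8 minus that of ARR9 was -0.20, with a 95% interval from -0.87 to 0.46.

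ARR16 and ARR17 encode the shortest proteins of the family, with 164 and 153 codons before the stop. ARR16 had 3.48 FPKM in air and 3.92 FPKM in ethylene, with a q of 0.932 and a 95% interval of the ratio from 0.337 to 3.75. These values are of an entry numbered with genes of the strand opposite to ARR16. The entry numbered with plus-strand genes, the strand of ARR16, had 1.97 and 4.16 FPKM, a log2 change of 0.80 in place of 0.13. ARR17 was at 0.809 FPKM in air and listed at 0 in ethylene, with a deposited p of 0.0092 and a q of 0.0724. ARR17 thus had the same p as ARR9, in the other direction.

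Several members lay close to the calling limit. An unadjusted Cuffdiff p under 0.05 was found for 5 of 10 members, ARR3 and ARR9 higher and ARR5, ARR15 and ARR17 lower. Among all tested entries 20.5% had such a p, 9.17% higher and 11.3% lower. The highest p of any called entry in the table was 0.0056, and the 4 members past it ran from 0.0092 to 0.0147. Of the 8 members with a log2 ratio and a standard error, 7 had a 95% interval that included 0, and the exception was ARR3. With standard errors on the scale of the deposited p, 5 of the 8 intervals included 0, and those of ARR3, ARR5 and ARR9 did not.

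**Figure D3:**
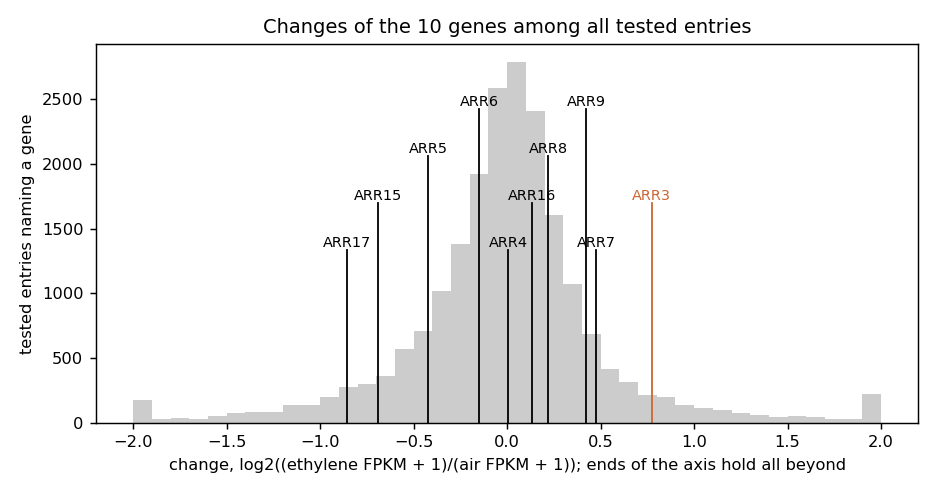
Histogram of the change of all 20786 tested entries that name a gene, as log2((ethylene FPKM + 1)/(air FPKM + 1)) on the x axis and entries per 0.1 on the y axis, with the 10 genes as lines (their heights carry no value) and ARR3, the called member, in orange. The members spread on both sides of 0, from -0.86 for ARR17 to 0.77 for ARR3.

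On the log2((ethylene FPKM + 1)/(air FPKM + 1)) scale the members ran from -0.86 for ARR17 to 0.77 for ARR3. The central 80% of all tested entries lay between -0.58 and 0.50. ARR3 was above that range, and ARR15, at -0.69, and ARR17 were below it. The other 7 members lay within it.

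The values of 0 for ARR15 and ARR17 rest on very low levels. Both stood below 1 FPKM in air, at percentiles 4.56 and 6.60 of the levels of all tested entries, where ARR4 stood at percentile 90.3. Of 1091 tested entries with 0.5 to 1 FPKM in air, 26 (2.38%) were listed at 0 in ethylene, and 7 of those were called. In the other direction, 25 of 1069 entries with 0.5 to 1 FPKM in ethylene were listed at 0 in air. An exact 0 can be a failed estimate, and the depth needed to set a limit is unknown.

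ARR8 and ARR16 each had 2 entries over the same span, and their values did not match. Within a chromosome the entry numbers of the table run along it and then start again. The first run held genes of the plus strand in 99.8% of 13054 entries, and the second held genes of the minus strand in 99.8% of 12914. ARR8 and ARR16 lie on the plus strand, yet each has an entry in either run. Of 427 loci named alone in several entries, 412 had an entry in each.

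**Figure D4:**
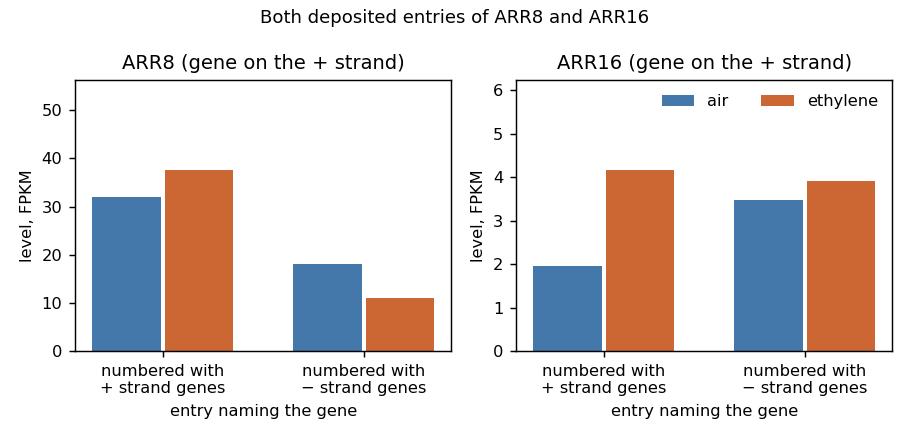
FPKM in air (blue) and in ethylene (orange) on the y axis for both deposited entries of ARR8 (left) and ARR16 (right), by whether the entry is numbered with plus-strand or minus-strand genes; bars are pooled values without error. The 2 entries of ARR8 differ in direction, while both entries of ARR16 are higher in ethylene.

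The ARR8 entry numbered with plus-strand genes is the one used above. The other had 18.1 FPKM in air and 11.1 FPKM in ethylene, with a log2 ratio of -0.70, a standard error of 0.57 and a q of 0.352. Added together, both ARR8 entries came to 50.2 FPKM in air and 48.7 in ethylene. For ARR16 the entry used, which has the higher mean, is numbered with minus-strand genes, opposite to the gene. The ARR16 entry numbered with plus-strand genes had a log2 ratio of 1.08, a standard error of 1.12 and a q of 0.538. None of these 4 entries was called. The strand setting is not given in the sources used here, so fragments of ARR8 or ARR16 and of a transcript opposite to it may not be separable, and the levels of both genes are uncertain. The other 8 members had 1 entry each, with no other entry overlapping it.

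Among the genes that act before the type-A family in cytokinin signalling, 1 rose, the phosphotransfer protein gene AHP1. None of the 3 receptor genes was called. AHK3 had 42.6 FPKM in air and 44.0 FPKM in ethylene, and AHK4, which is most active in roots, had 15.5 and 20.7, with a log2 ratio of 0.42, a standard error of 0.22 and a deposited Cuffdiff q of 0.0637. Of 6 phosphotransfer protein genes 1 was called. AHP1 (AT3G21510), which carries phosphate from receptors to response regulators, rose 3.47-fold, from 42.4 to 147 FPKM. This is a log2 ratio of 1.80 (standard error 0.39), and the deposited q was 0.000878. The other 4 tested genes of this list all had a lower plain value in ethylene, with ethylene-to-air ratios from 0.635 to 0.974. None of them was called, so a fall is not shown.

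None of the 11 type-B genes, the activators of the type-A family, was called. Of these, 6 were tested and 5 had too few reads. ARR1 had 39.9 FPKM in air and 45.3 FPKM in ethylene, and ARR2 had 13.8 and 10.6 with a q of 0.178. The tested type-B genes had a median log2 change of 0.04. The type-C genes ARR22 and ARR24, a small branch outside types A and B, were listed at 0 in both conditions.

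**Figure D5:**
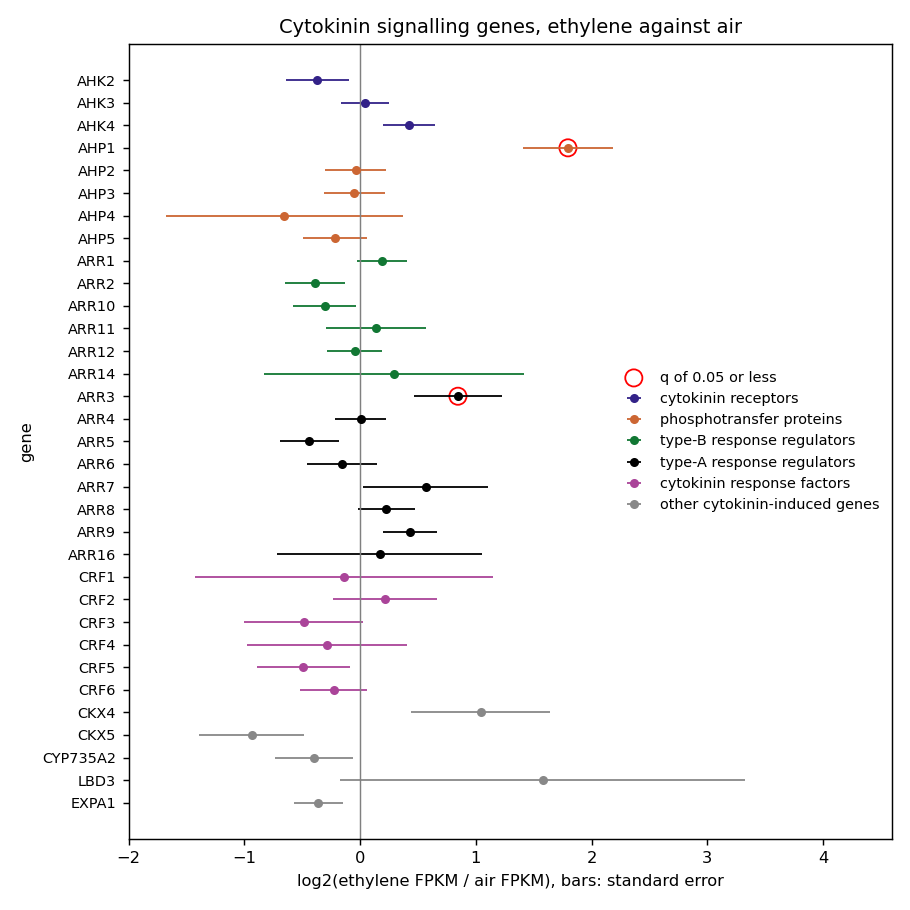
Log2 ratio of ethylene to air FPKM on the x axis for the tested cytokinin signalling genes with a ratio, 1 gene per row and coloured by list; bars are the standard errors obtained from the deposited statistic, and red rings mark a deposited q of 0.05 or less. Rings stand at AHP1 and ARR3; ARR15 and ARR17 have no ratio.

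The cytokinin response factor genes and the further cytokinin-induced genes gave no calls. Of the 6 cytokinin response factor genes, AP2-type transcription factors, none was called, 5 of 6 values were lower in ethylene, and the median log2 change was -0.20. CRF6 had 16.3 FPKM in air and 13.9 FPKM in ethylene, and CRF5 had 6.56 and 4.67. Of 7 further cytokinin-induced genes 5 were tested and none was called; 2 of the 5 values were higher in ethylene and 3 lower, with a median log2 change of -0.34. CKX5, an enzyme that degrades cytokinin, had 8.45 FPKM in air and 4.42 FPKM in ethylene, with a q of 0.0538. EXPA1, an expansin, was at 113 and 87.6 FPKM with a q of 0.0933. The higher values were those of CKX4, of the same enzyme family as CKX5, with 1.06 and 2.19 FPKM (q of 0.12), and of LBD3, with 0.341 and 1.02 FPKM (q of 0.577). Taken over the receptor, phosphotransfer, type-B, type-C, response factor and further lists, 1 of 25 tested genes was called, AHP1, beside 11.3% of all tested entries, and their median log2 change was -0.06.

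The CBF factors, cold-response activators described as repressed by EIN3 alongside type-A genes, were low. Of 3 such genes 2 were tested, and neither was called. CBF2 had 3.58 FPKM in air and 1.28 FPKM in ethylene, with a q of 0.144. CBF3 was at 1.36 and 0.156, with a log2 ratio of -3.13, a standard error of 1.93 and a q of 0.315. Both tested CBF genes had lower values in ethylene, as ARR5 and ARR15 did, whereas ARR7 had a higher one. None of these genes was called, and a part of EIN3 in their values was not tested.

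Since type-A genes differ between tissues, markers of meristems and xylem were examined in the same table. Among 5 shoot meristem markers 1 was called, KNAT1, a homeobox gene of the meristem and stem, which fell from 65.0 to 42.6 FPKM with a deposited Cuffdiff q of 0.000878. That call is lost when the Cuffdiff statistic is read against a standard normal curve, with an adjusted p of 0.0731. Of these 5 markers 3 were tested. The summed level of the list was 70.3 FPKM in air and 47.6 in ethylene, and without KNAT1 it was 5.29 and 4.98. WUS, a defining gene of the list, was listed at 0 in both. None of 5 root meristem markers, of which 4 were tested, was called, and their sum was 40.3 and 41.1 FPKM. SCR had 20.8 FPKM in air and 23.3 in ethylene, and WOX5 1.40 and 0.915. None of 5 xylem markers was called. The level of XCP2 was 157 FPKM in air and 188 in ethylene, and that of VND6 was 0.586 and 0.169. The sum of the xylem list was 260.4 and 306 FPKM, but 2 of its values were higher and 3 lower in ethylene, with a median log2 change of -0.07. The part of the KNAT1 difference in the values of the type-A genes was not tested.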

How the data were processed

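RNA was sequenced from 2 air and 2 ethylene libraries of srt1srt2 seedlings. The submitters' processing notes name TopHat2 2.0.9, Cuffdiff 2.2.1 and the TAIR10 build; parameters, annotation and strand setting: not given in the sources used here. A single deposited table by the authors holds 1 pooled FPKM value per condition, per the file headers, with Cuffdiff's p-value and q-value columns and a test statistic, here treated as a score, per the file headers. The deposited q equals Benjamini-Hochberg adjustment over 21076 tested entries to within 5.25e-07. The normal quantile of the deposited p was larger than the statistic, by a median factor of 1.43. The deposited Cuffdiff p is the authors' test, and the normal-curve reading was added here as a stricter one. How the statistic was scaled is not given in the sources used here. There were 0 unused columns of per-sample values.

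From these values, changes with a pseudocount of 1 FPKM, plain ratios, standard errors and counts of calls were computed with Python 3.11.15, pandas 2.3.3, numpy 2.4.6 and scipy 1.17.1; the adjustment was tested on simulated data. No test across libraries could be made, so the authors' test was used. The 25968 entries compared by locus all overlapped their gene in TAIR10.1, from which sequences and spans were read. Coding sequences were aligned globally in pairs with Biopython 1.88, and identity is the share of aligned bases that match. The members and lists were chosen with earlier results of these data known. All 10 members are named. Of each other list, the called genes, the highest and the one with the largest change were to be named. EBF1, PHYA, WUS, CKX4 and LBD3 are named outside this rule.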

Additional observations from a re-analysis of the deposited data

How the results depend on the processing

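The count of called type-A genes was 1 and went to 0 both at a q limit of 0.01 and when the statistic was read against a standard normal curve; it was 1 when p was adjusted over entries at 1 FPKM or more and when the entry with the highest mean was used. AHP1, the 1 call in the other cytokinin lists, was called under each of these. The log2 change of ARR4 became -0.0037 when centred on the median of entries at 1 FPKM or more, and that of ARR8 became -0.043 when both entries of a locus were summed, a choice made after seeing the data; the family median then was -0.019. In the other settings that keep all 10 genes, the family median lay between 0.06 and 0.11. Both the plain ratio (0.20) and a limit of 1 FPKM (0.18) give medians of 8 genes, since ARR15 and ARR17, both lower, drop out. The difference between ARR3 and ARR4 excluded 0 with standard errors from the deposited p and not with those from the statistic. With a pseudocount of 0.1 FPKM, ARR15 and ARR17 were at -2.84 and -3.18, so the size of these changes rests on the pseudocount. With the ARR16 entry numbered with genes of its own strand, its log2 change was 0.80 in place of 0.13. No paired analysis was possible because the table holds 1 pooled value per condition, and for the same reason no library could be left out. Unknown depth limits what can be said of genes under 1 FPKM.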
